A study of Rattus norvegicus with 12 samples.

Results

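The olfactory bulb genes described here were Eomes, Tbx21, Cdhr1, Shisa3, Ms4a15, Trh, Th, Scgn, Shisa8 and Gng4, which are genes of mitral and tufted cells and of bulb interneurons, measured in RNA of rat prefrontal cortex. They are 10 of the 22431 genes of the deposited table, and all 10 were among the 14170 genes that passed a filter of a mean FPKM (fragments per kilobase of gene and per unit of sequencing depth) of at least 0.5 over the 12 libraries. The genes were chosen by their measured levels in these same libraries, in which they stood high together in some exposed animals. Their levels are therefore given as a description, with no test and no p-value.

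Mitral and tufted cells are the projection neurons of the olfactory bulb, which receive input from olfactory sensory neurons and send axons to olfactory cortex. Eomes (also called Tbr2) and Tbx21 (also called T-bet) are T-box transcription factors of these cells, and Cdhr1 is a cadherin-related protein used to mark them. Periglomerular and granule cells are the inhibitory interneurons of the bulb. They are replaced throughout life by neuroblasts that migrate from the wall of the lateral ventricle. Some periglomerular cells make dopamine, and Th, which encodes tyrosine hydroxylase, the rate-limiting enzyme of catecholamine synthesis, marks them.

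The libraries came from wild-type rats in early adolescence, 1 library per animal. The 4 PNO animals had postnatal oxycodone exposure, the 4 IUO animals had in utero oxycodone exposure and the 4 saline animals were the controls. Oxycodone, an opioid receptor agonist, was given by oral gavage at 15 mg/kg, either before pregnancy or after it up to postnatal day 21, per the labels. The labels do not assign these windows to groups, but the group names place PNO exposure after birth and IUO exposure in utero. The last dosing day is recorded as postnatal day 21 for both groups. There were 2 dams per group and 2 offspring of each dam. Animals are not tied to dams in the labels, so p-values measure the spread between these animals and may be too small. Libraries are named by group and the replicate number of their label.

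Libraries of the same group differed from each other in markers of regions next to the cortex, and this touches every result below. Total counts per library lay between 49227533 and 60672246. Levels are in CPM (counts relative to library size, scaled with TMM factors), unless FPKM is named. In all 12 libraries the summed level of 8 cortical projection neuron genes lay between 1594 CPM (IUO 4) and 2746 CPM (saline 3). Its largest part was Slc17a7, the vesicular glutamate transporter of cortical excitatory neurons, between 1340 and 2430 CPM. The summed level of 7 striatal projection neuron genes was highest in PNO 2 (1384 CPM) and IUO 2 (1052 CPM), followed by IUO 1 (469 CPM) and saline 2 (453 CPM), and it lay between 171 and 265 CPM in the other 8 libraries. The bulb genes were high in PNO 1, PNO 3, PNO 4 and IUO 3, none of which is among those with raised striatal genes. In tissue RNA, fewer cells of a type and less RNA per cell cannot be told apart.

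The promoters of Th, Tbx21 and Cdhr1 are shown because they are the members in which a searched motif was found, and the 3 genes mark the dopaminergic interneurons and the projection neurons. All 10 members were matched by symbol to the RefSeq promoter table of the rat assembly GRCr8, which gives the 250 bases before and the 50 after each gene start. The sequences run 5' to 3' on the strand of the gene, with the motif in capitals. The window is chr1:207508169-207508468 for Th, chr10:82595204-82595503 for Tbx21 and chr16:12883530-12883829 for Cdhr1, all on the minus strand.
Th: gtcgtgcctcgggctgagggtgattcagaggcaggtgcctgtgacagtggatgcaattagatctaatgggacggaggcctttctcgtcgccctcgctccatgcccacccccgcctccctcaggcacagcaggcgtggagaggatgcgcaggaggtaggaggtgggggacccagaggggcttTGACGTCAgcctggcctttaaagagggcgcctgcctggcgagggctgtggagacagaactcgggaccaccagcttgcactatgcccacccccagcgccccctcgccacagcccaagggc
Tbx21: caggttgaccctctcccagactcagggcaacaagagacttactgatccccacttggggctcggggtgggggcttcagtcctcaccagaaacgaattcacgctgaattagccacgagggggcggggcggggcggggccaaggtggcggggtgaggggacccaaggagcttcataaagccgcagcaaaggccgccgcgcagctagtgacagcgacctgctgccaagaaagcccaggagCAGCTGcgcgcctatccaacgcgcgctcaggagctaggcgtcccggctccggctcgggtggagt
Cdhr1: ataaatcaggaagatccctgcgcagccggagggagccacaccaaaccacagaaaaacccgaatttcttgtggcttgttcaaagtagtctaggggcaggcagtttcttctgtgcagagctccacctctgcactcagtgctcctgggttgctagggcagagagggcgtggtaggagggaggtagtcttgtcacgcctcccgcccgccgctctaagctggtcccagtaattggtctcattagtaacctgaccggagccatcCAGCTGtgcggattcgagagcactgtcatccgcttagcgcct

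Both strands of these windows were searched for 4 motifs. The cyclic AMP response element TGACGTCA stands at position -69 of Th, counted from the gene start, and 1.83% of all 33469 promoters in the table hold it. The E-box CAGCTG stands at position -14 in Tbx21 and at position 9 in Cdhr1, and 15.1% of all promoters hold it. The T-box core GGTGTGA (3.83% of all promoters) and the nuclear receptor element AAAGGTCA (1.43%) were found in 0 of the 10 members. TGACGTCA and CAGCTG read the same on both strands, and none of the matches overlapped another. A match is a description of the letters, and the lack of one says only that these letters are not in this window.

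The T-box factor genes and Cdhr1 are the markers of the projection neurons. In the deposited table, whose genome build is not given in the sources used here, Eomes spans 118181777 to 118188316 on chromosome 8, Tbx21 82082322 to 82098831 on chromosome 10 and Cdhr1 12843437 to 12863396 on chromosome 16. Eomes measured 6.54, 0.467, 5.81 and 7.76 CPM in PNO 1 to 4, 0.755, 0.284, 11.2 and 0.441 CPM in IUO 1 to 4, and 0.279, 0.221, 0.467 and 0.158 CPM in saline 1 to 4. PNO 1, PNO 3, PNO 4 and IUO 3 stood far above the highest saline library, IUO 1 slightly above it, and PNO 2, IUO 2 and IUO 4 lay within the saline range, so the groups overlapped. The 4 saline libraries rested on 9 to 27 reads of Eomes each, against 347 to 667 in the 4 libraries in which it was high. Tbx21 measured 8.31, 0.761, 6.89 and 8.29 CPM in PNO, 1.41, 0.406, 10.1 and 0.771 CPM in IUO, and 0.558, 0.764, 0.502 and 1.58 CPM in saline. The same libraries were high as for Eomes, and PNO 2, IUO 1, IUO 2 and IUO 4 lay below saline 4. Cdhr1 measured 98.1, 21.2, 98.7 and 130.3 CPM in PNO, 24.8, 21.7, 142.9 and 8.12 CPM in IUO, and 22.9, 24.1, 16.0 and 13.8 CPM in saline. IUO 4 was below all saline libraries for Cdhr1, and IUO 3 was the highest of all 12.

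As group values, Eomes averaged 5.14 ± 3.22 CPM in PNO, 3.16 ± 5.34 CPM in IUO and 0.281 ± 0.133 CPM in saline (SD, n = 4 each). Tbx21 averaged 6.06 ± 3.6 CPM in PNO, 3.17 ± 4.63 CPM in IUO and 0.852 ± 0.501 CPM in saline (SD, n = 4 each). Cdhr1 averaged 87.1 ± 46.5 CPM in PNO, 49.4 ± 62.8 CPM in IUO and 19.2 ± 5.09 CPM in saline (SD, n = 4 each). The SD of IUO exceeded its mean for each of these genes, with 1 high library in the group. On the log2 CPM scale (prior count 2) the PNO mean was above the saline mean by 3.56 for Eomes, 2.47 for Tbx21 and 1.94 for Cdhr1, and the IUO mean by 1.86, 0.91 and 0.59. The direction of the IUO means rested on 1 library. The IUO mean was above the saline mean for all 10 genes, and without IUO 3 it was below it for 8 of the 10. The differences then ran from -0.53 for Trh to 0.73 for Eomes. Of those 8, Tbx21 (-0.0005) and Shisa8 (-0.04) were barely below saline. With group medians of all 4 libraries, IUO was above saline for 8 genes and below it for 2, Trh and Scgn. The PNO mean was above the saline mean for all 10 genes with and without PNO 2. The genes were chosen by their levels in these libraries, so nothing is read from these counts of genes.

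Shisa3 encodes a membrane protein of the endoplasmic reticulum known to hold back Wnt and FGF receptors, in work on Xenopus. It lies on chromosome 14, 40563673 to 40568244, and measured 13.7, 2.80, 12.8 and 20.7 CPM in PNO, 4.35, 4.37, 15.2 and 4.81 CPM in IUO, and 4.93, 3.56, 4.45 and 4.24 CPM in saline. Its level in PNO 2 was the lowest of all 12 libraries, and the 3 other PNO libraries and IUO 3 were above every saline library. Ms4a15, a member of the MS4A family of membrane proteins on chromosome 1 (207628305 to 207641799), measured 8.0, 0.225, 7.03 and 10.9 CPM in PNO, 0.806, 0, 10.4 and 0.0735 CPM in IUO, and 0, 0.407, 0.173 and 0.247 CPM in saline. A count of 0 allows up to 0.0609 CPM in IUO 2 and 0.0494 CPM in saline 1 (3 counts, counting error only). The saline level of Ms4a15 thus rested on 0, 24, 10 and 14 reads, and so did its ratio to the saline mean, up to 52.9 in PNO 4. Shisa3 averaged 12.5 ± 7.35 CPM in PNO, 7.17 ± 5.33 CPM in IUO and 4.29 ± 0.565 CPM in saline (SD, n = 4 each).

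**Figure D1:**
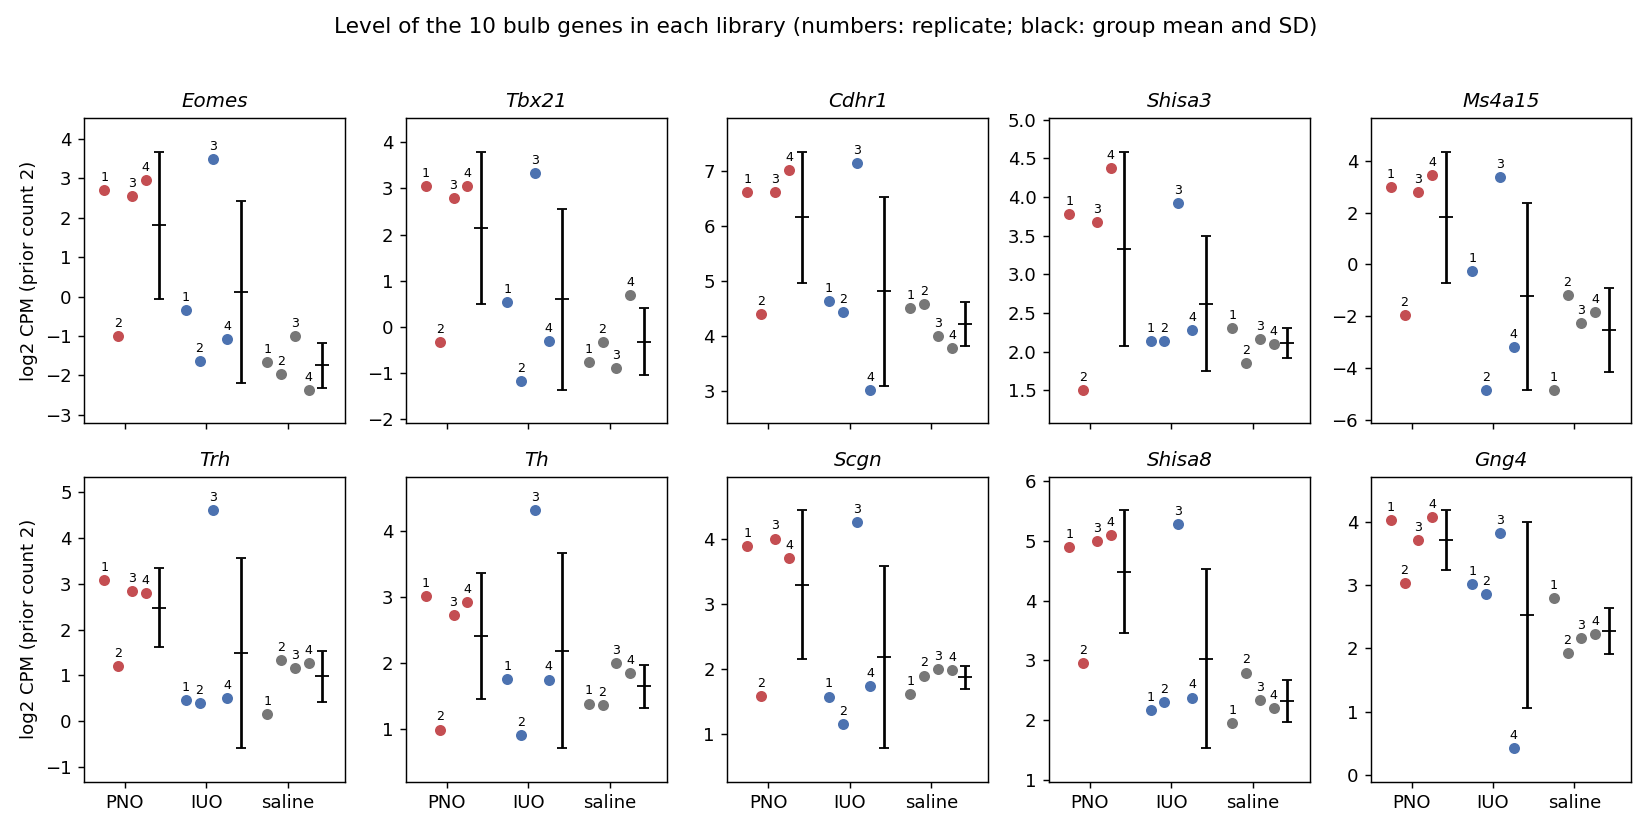
Log2 CPM (prior count 2) of each of the 10 genes in every library, PNO in red, IUO in blue and saline in grey, with replicate numbers and the group mean and SD in black. PNO 1, PNO 3, PNO 4 and IUO 3 stand above the 4 saline libraries in all 10 panels, and PNO 2 stands apart from the rest of its group.

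Trh encodes the precursor of thyrotropin-releasing hormone, a peptide of the hypothalamus that other brain regions also make. It lies on chromosome 4, 124742111 to 124744637, and measured 8.41, 2.27, 7.11 and 6.87 CPM in PNO, 1.34, 1.28, 24.3 and 1.38 CPM in IUO, and 1.08, 2.48, 2.20 and 2.38 CPM in saline. IUO 3 was far above every other library, and the other IUO libraries lay between saline 1 and the rest of saline. Th, on chromosome 1 (198071503 to 198109767), measured 7.99, 1.95, 6.54 and 7.51 CPM in PNO, 3.34, 1.85, 19.8 and 3.32 CPM in IUO, and 2.58, 2.53, 3.96 and 3.56 CPM in saline. PNO 2 and IUO 2 were below all saline libraries for Th, and its ratio to the saline mean was the lowest of the 10 genes in PNO 1 (2.53), PNO 3 (2.07) and PNO 4 (2.38). Trh averaged 6.16 ± 2.69 CPM in PNO, 7.08 ± 11.5 CPM in IUO and 2.03 ± 0.644 CPM in saline (SD, n = 4 each). Th averaged 6.0 ± 2.76 CPM in PNO, 7.08 ± 8.52 CPM in IUO and 3.16 ± 0.717 CPM in saline (SD, n = 4 each).

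For Trh and Th, IUO had the higher mean CPM than PNO but the lower mean log2 CPM. The difference of mean log2 CPM, IUO minus PNO, was -0.99 for Trh and -0.23 for Th, since 1 library carries the mean on the linear scale. For the other 8 genes IUO was lower than PNO on both scales, with differences of mean log2 CPM between -0.71 for Shisa3 and -3.07 for Ms4a15. For Th the difference was 0.20 without IUO 2.

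Among the interneuron genes, Scgn encodes secretagogin, an EF-hand calcium-binding protein. It lies on chromosome 17, 41106467 to 41148667, and measured 14.8, 2.96, 16.0 and 12.9 CPM in PNO, 2.94, 2.19, 19.0 and 3.29 CPM in IUO, and 3.02, 3.68, 3.93 and 3.91 CPM in saline. PNO 2, IUO 1 and IUO 2 were below all saline libraries, and the 4 high libraries were the same as before. The deposited table places H2ac1 on the opposite strand within the span of Scgn. The libraries were made with a stranded kit, the counting mode is not given in the sources used here, and H2ac1 had a mean FPKM of 0.004, while the other 9 genes overlap no gene of the table.

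Shisa8, which encodes an auxiliary subunit of AMPA receptors also called CKAMP39, lies on chromosome 7, 113722408 to 113727858. It measured 29.7, 7.69, 31.8 and 34.3 CPM in PNO, 4.46, 4.89, 38.6 and 5.18 CPM in IUO, and 3.86, 6.92, 5.0 and 4.56 CPM in saline. All 4 PNO libraries exceeded all 4 saline libraries, PNO 2 by the smallest margin. Gng4, a gamma subunit of heterotrimeric G proteins on chromosome 17 (86449022 to 86495254), measured 16.2, 8.16, 13.0 and 16.8 CPM in PNO, 8.06, 7.25, 14.1 and 1.30 CPM in IUO, and 6.88, 3.77, 4.45 and 4.65 CPM in saline. Here too PNO and saline did not overlap. IUO 1, IUO 2 and IUO 3 were above all saline libraries for Gng4, and IUO 4 was the lowest of the 12. Shisa8 averaged 25.9 ± 12.2 CPM in PNO, 13.3 ± 16.9 CPM in IUO and 5.09 ± 1.31 CPM in saline (SD, n = 4 each). Gng4 averaged 13.6 ± 3.96 CPM in PNO, 7.68 ± 5.25 CPM in IUO and 4.94 ± 1.35 CPM in saline (SD, n = 4 each).

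Counted over the 10 genes, 2 (Shisa8 and Gng4) had all 4 PNO libraries above all 4 saline libraries, where 5.14% of the 14170 tested genes did. For the other 8 genes 3 of the 4 PNO libraries exceeded the highest saline library. In IUO 0 of the 10 genes had all 4 libraries above all saline libraries, where 1.15% of tested genes did. These counts come from the contrast by which the genes were selected, so nothing is read from them. PNO 1, PNO 3, PNO 4 and IUO 3 each held all 10 genes above all saline libraries and more than 2-fold above the saline mean. PNO 2 held 2 above all saline libraries, IUO 1 held 4, IUO 2 held 1 and IUO 4 held 0. The share of all tested genes was not counted for single libraries, so nothing is read from these counts either.

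**Figure D2:**
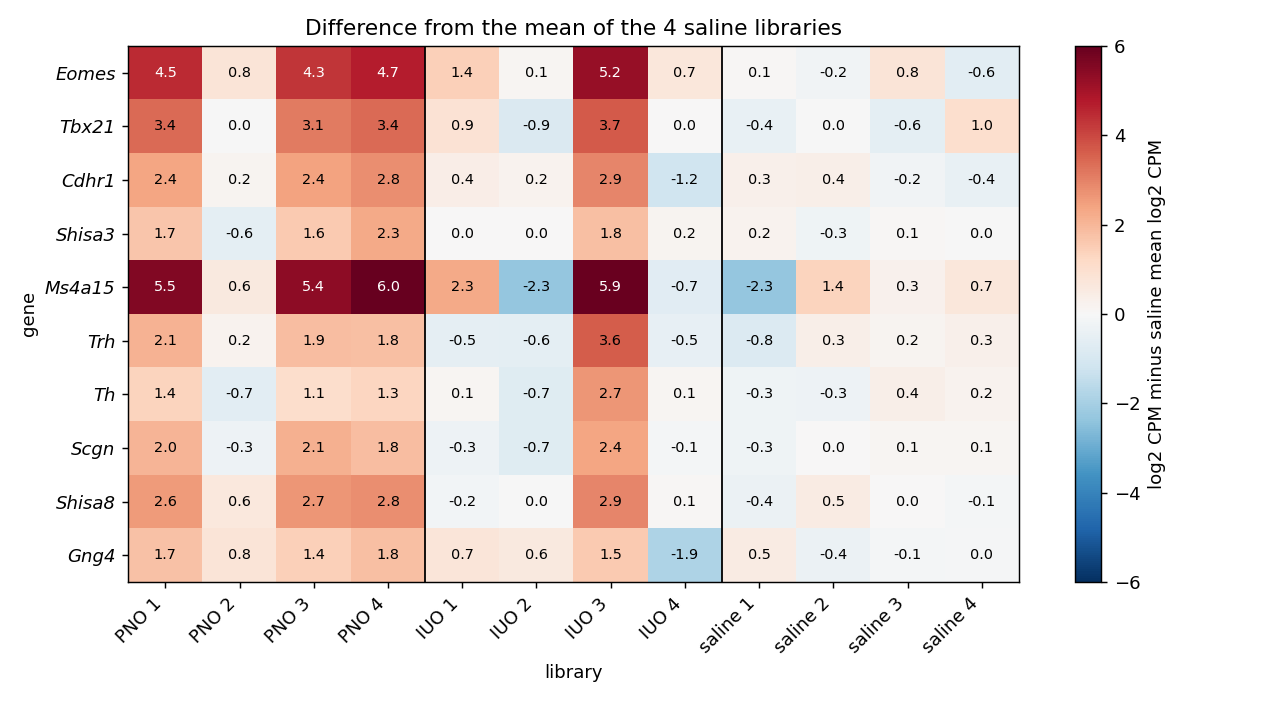
Log2 CPM of each gene (down) in each library (across) minus the mean log2 CPM of the 4 saline libraries, PNO left, then IUO, then saline. The columns PNO 1, PNO 3, PNO 4 and IUO 3 are positive for all 10 genes, and Gng4 is negative in IUO 4.

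The median of the 10 ratios to the saline mean was 7.51 in IUO 3, and for PNO 1, PNO 3 and PNO 4 it was 4.62, 4.77 and 5.77. For the remaining exposed libraries PNO 2, IUO 1, IUO 2 and IUO 4 it was 1.09, 1.18, 0.795 and 0.905. IUO 3 was the highest library for 7 of the 10 genes, and PNO 4 for Shisa3, Ms4a15 and Gng4.

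Levels can be set side by side between genes only per length, so FPKM is used here. The FPKM of the 10 genes summed to 87.8, 21.6, 81.0 and 98.7 in PNO 1 to 4, 22.6, 18.8, 122.4 and 12.4 in IUO 1 to 4, and 19.4, 19.3, 17.5 and 17.0 in saline 1 to 4. Cdhr1 held the largest share of that sum in PNO 4, at 28.2%, and in IUO 3, at 25.1%. In PNO 4 it was followed by Shisa8 with 17.0% and Gng4 with 15.4%, and in IUO 3 by Shisa8 with 15.5% and Trh with 13.3%. Trh took 4.64% of the sum in PNO 4, and Th took 3.93% in PNO 4 and 8.41% in IUO 3. Cdhr1 ranked 2046 by FPKM among the 14170 tested genes in IUO 3 and 2177 in PNO 4, against 7651 to 9475 in the saline libraries.

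**Figure D3:**
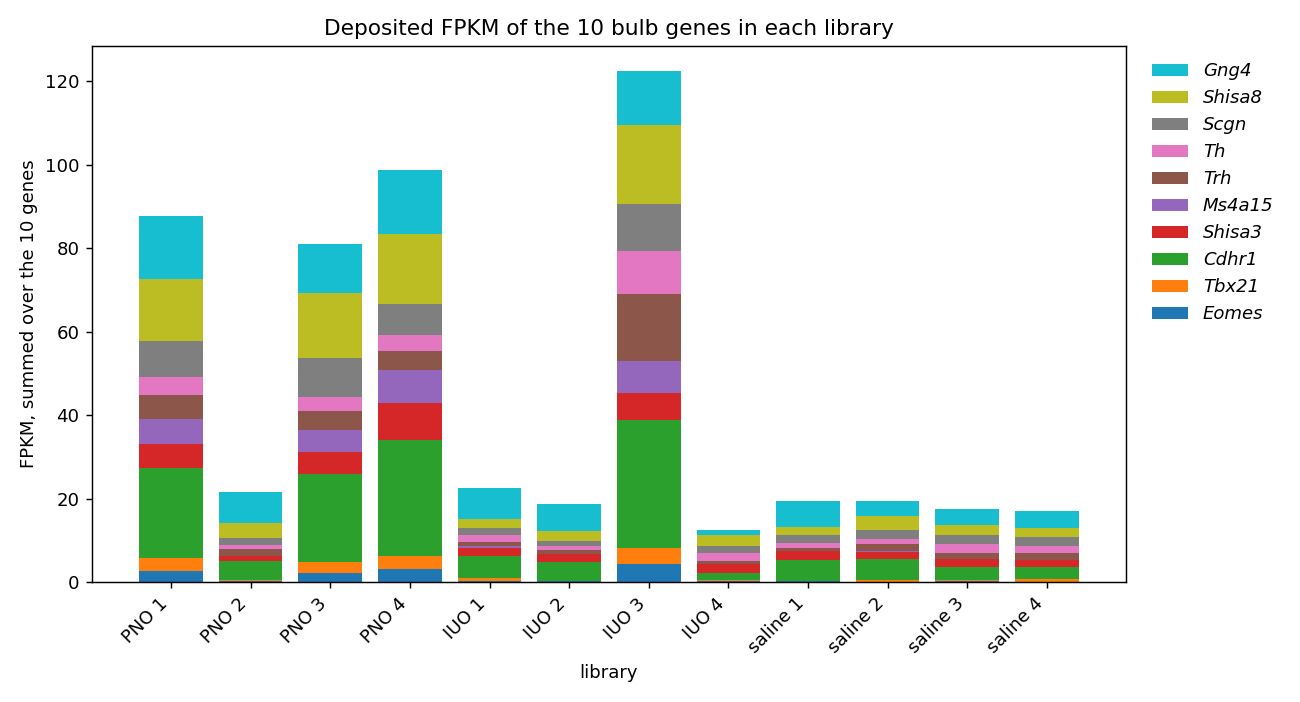
Deposited FPKM of the 10 genes stacked for each library, PNO left, then IUO, then saline. The sum lies between 81.0 and 122.4 in PNO 1, PNO 3, PNO 4 and IUO 3 and between 12.4 and 22.6 in the other 8 libraries, and Trh (brown) and Th (pink) take a larger part in IUO 3 than in the PNO libraries.

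The genes did not keep the same proportions to each other in the 4 high libraries. IUO 3 over PNO 1, PNO 3 and PNO 4 gave ratios of 2.89, 3.42 and 3.54 for Trh and of 2.48, 3.03 and 2.64 for Th. For Eomes the ratios were 1.71, 1.92 and 1.44, and for the other 7 genes all lay between 0.734 and 1.47. Counts of Trh over counts of Eomes were 2.18 in IUO 3, against 1.28, 1.22 and 0.885 in PNO 1, PNO 3 and PNO 4. Counts of Eomes over counts of Tbx21 were 1.11 in IUO 3, against 0.787, 0.842 and 0.937 in the same PNO libraries. IUO 3 also differed from these PNO libraries in Omp, olfactory marker protein, which defines mature olfactory sensory neurons. Omp measured 17.2 CPM in IUO 3 and 1.88, 0.602 and 0.406 CPM in the libraries PNO 1, PNO 3 and PNO 4, against a saline mean of 0.125 ± 0.0401 CPM (SD, n = 4). The summed level of the 5 olfactory sensory neuron genes was 25.9 CPM in IUO 3 and between 4.59 and 9.5 CPM in the other 11 libraries. Whether this goes with the higher Trh and Th of IUO 3 was not tested.

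Gng4 followed the other members least. Pearson's r of its log2 CPM with the mean of the other 9 genes, taken as z-scores over the 12 libraries, was 0.731, and r was between 0.888 (Th) and 0.971 (Scgn) for the rest. These values describe genes measured in the same libraries and rest on the 4 libraries in which the genes were high. In the other 8 libraries r lay between -0.516 for Shisa3 and 0.729 for Ms4a15. Gng4 was above all saline libraries in PNO 2, IUO 1 and IUO 2, which held the highest summed striatal levels among the exposed libraries, while in saline 2 it was the lowest of saline. Whether striatal tissue took part in the Gng4 level was not tested.

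**Figure D4:**
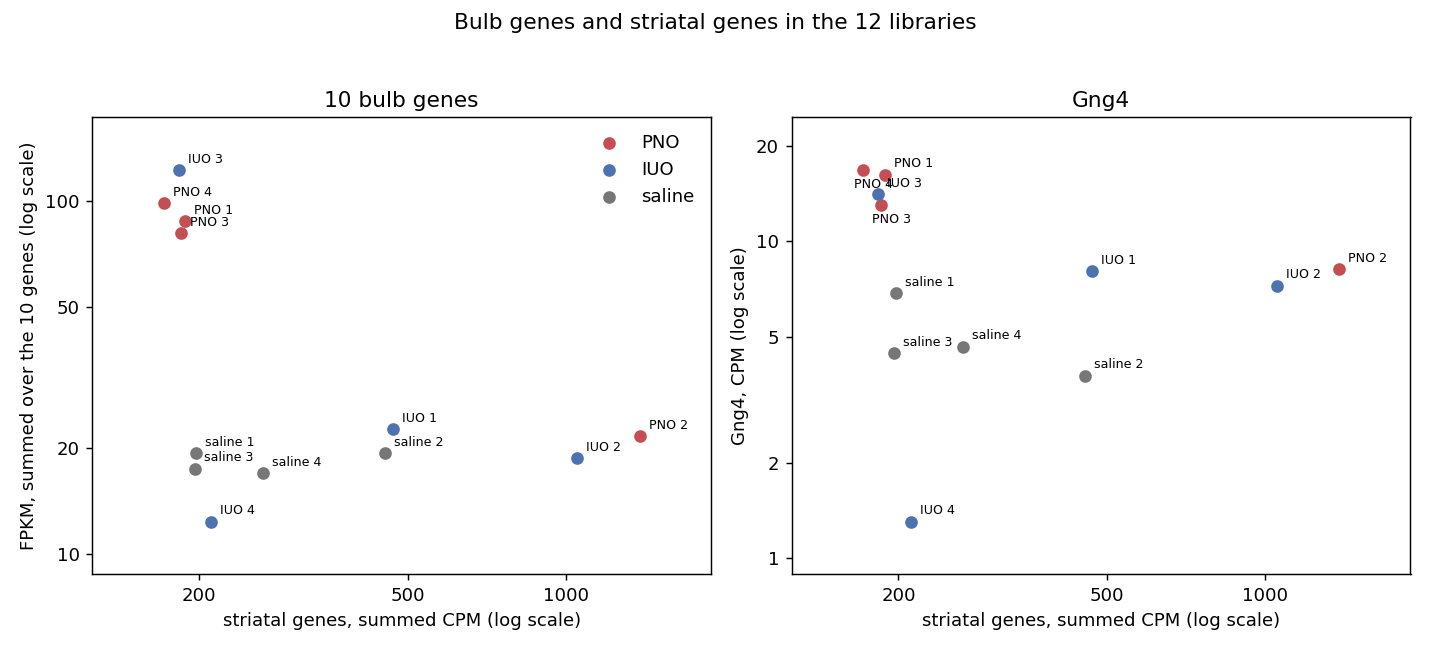
Summed striatal CPM (x, log scale) against the summed FPKM of the 10 genes (left, log scale) and against Gng4 in CPM (right, log scale), 1 point per library. The libraries with summed bulb FPKM over 80 have striatal sums under 200 CPM, and Gng4 in PNO 2, IUO 1 and IUO 2 lies at 7.25 to 8.16 CPM.

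The next question was whether other genes of the same bulb cell types, which are not among the 10, differed between the groups. These genes were measured in the same libraries, so they are not independent of the pattern above, and the comparisons of PNO and of IUO share the saline libraries. Over all 14170 tested genes, edgeR's quasi-likelihood test with Benjamini-Hochberg adjustment called 0 genes (0.0%) in PNO versus saline, in IUO versus saline and in IUO versus PNO. Before adjustment 1564 genes had a p under 0.05 in PNO versus saline (966 higher or 6.82%, 598 lower or 4.22%). The counts were 570 in IUO versus saline (327 higher or 2.31%, 243 lower or 1.71%) and 953 (6.73%) in IUO versus PNO. DESeq2 called 119, 11 and 8 genes at an adjusted p under 0.05 in these comparisons, and limma on log2(FPKM + 0.5) called 1, 0 and 0. Without IUO 4 edgeR called 19 genes in PNO versus saline, and the unadjusted count in IUO versus saline was 1276. In every list described below edgeR called 0 genes after adjustment, so the folds given are descriptions that did not pass.

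Of 8 other mitral and tufted cell genes 5 passed the filter on low values. In PNO versus saline 2 of the 5 had an unadjusted p under 0.05, both higher, and the median log2 fold change was 0.03 beside 0.01 over all tested genes. Doc2g, a C2-domain protein gene, measured 16.7 ± 10.4 CPM in PNO and 4.25 ± 0.946 CPM in saline (SD, n = 4 each), with a log2 fold change of 1.98 (SE 0.787, edgeR adjusted p = 0.415). It was 17.6, 2.33, 19.8 and 27.2 CPM in PNO, 5.44, 3.07, 34.0 and 3.03 CPM in IUO and 3.17 to 5.32 CPM in saline, so it stood high in the same 4 libraries as the 10 genes. Reln, which encodes the secreted protein reelin and is also expressed by cortical neurons, averaged 53.1 ± 10.5 CPM in PNO and 33.3 ± 8.64 CPM in saline (SD, n = 4 each; edgeR adjusted p = 0.417). The mitral transcription factor genes Lhx1, Lhx5 and Barhl2 were below the filter, at no more than 0.201, 0.854 and 0.854 CPM in any library. At these low levels Barhl2 was 0.471, 0.363, 0.636 and 0.406 CPM in PNO, 0.0671, 0.264, 0.854 and 0 CPM in IUO and 0 to 0.271 CPM in saline. Lhx5 was 0.488, 0.207, 0.535 and 0 CPM in PNO, 0.101, 0.0812, 0.854 and 0.349 CPM in IUO and 0 to 0.104 CPM in saline. Barhl2 was above all saline libraries in all 4 PNO libraries, and both genes were highest in IUO 3. Slc17a6, Cck and Tbr1, which the cortex also expresses, had log2 fold changes of 0.03, -0.48 and -0.17. In IUO versus saline 0 of the 5 had an unadjusted p under 0.05, with a median log2 fold change of 0.13.

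Of 8 other periglomerular cell genes, all of which passed the filter, 3 had an unadjusted p under 0.05 and were higher in PNO versus saline and 1 was lower, with a median log2 fold change of 0.48. Calb2, the gene of the calcium-binding protein calretinin, measured 71.5, 17.4, 73.1 and 61.3 CPM in PNO, 17.6, 91.5 and 18.5 CPM in IUO 1, IUO 3 and IUO 4, still less in IUO 2, and 20.4, 20.7, 20.8 and 19.4 CPM in saline. It was high in PNO 1, PNO 3, PNO 4 and IUO 3, and below all saline libraries in the other 4 exposed libraries. Sp8, a zinc finger transcription factor of these interneurons, measured 10.2 ± 5.77 CPM in PNO and 2.67 ± 0.983 CPM in saline, and Sall3, another zinc finger factor, 7.08 ± 2.23 CPM in PNO and 3.37 ± 0.642 CPM in saline (SD, n = 4 each). Their edgeR adjusted p was 0.412 and 0.319. The gene with the lower value was Ddc, described with Th below. In IUO versus saline 0 of the 8 had an unadjusted p under 0.05.

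Of 10 other bulb granule cell genes, all tested, 7 had an unadjusted p under 0.05 in PNO versus saline, all higher, with a median log2 fold change of 0.65. In IUO versus saline 3 of the 10 did, all higher, with a median of 0.32. Pbx3, a homeobox transcription factor gene, measured 37.1, 25.1, 39.1 and 47.0 CPM in PNO, 15.7, 16.3, 46.1 and 7.79 CPM in IUO, and 10.4, 12.2, 7.81 and 7.54 CPM in saline. All 4 PNO libraries were above all saline libraries, as were IUO 1, IUO 2 and IUO 3. Its log2 fold change was 1.97 (SE 0.422) in PNO versus saline and 1.18 (SE 0.414) in IUO versus saline, with edgeR adjusted p of 0.305 and 0.998. Meis2, another homeobox gene, measured 156 ± 17.8 CPM in PNO, 106 ± 38.2 CPM in IUO and 98.5 ± 7.42 CPM in saline (SD, n = 4 each). The genes without such a p in PNO versus saline, Tpbg, Camk4 and Pcp4, had log2 fold changes of 0.02, -0.02 and 0.04. Gad1, Gad2, Synpr, Pcp4 and Camk4 are expressed by cortical neurons as well, and Meis2, Pbx3, Tshz1, Sp9, Gad1 and Gad2 also by striatal neurons. PNO 2, with the highest striatal sum, had 28.3 CPM of Gad2, the highest value of the 12 libraries. The part of striatal tissue in these values was not tested.

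**Figure D5:**
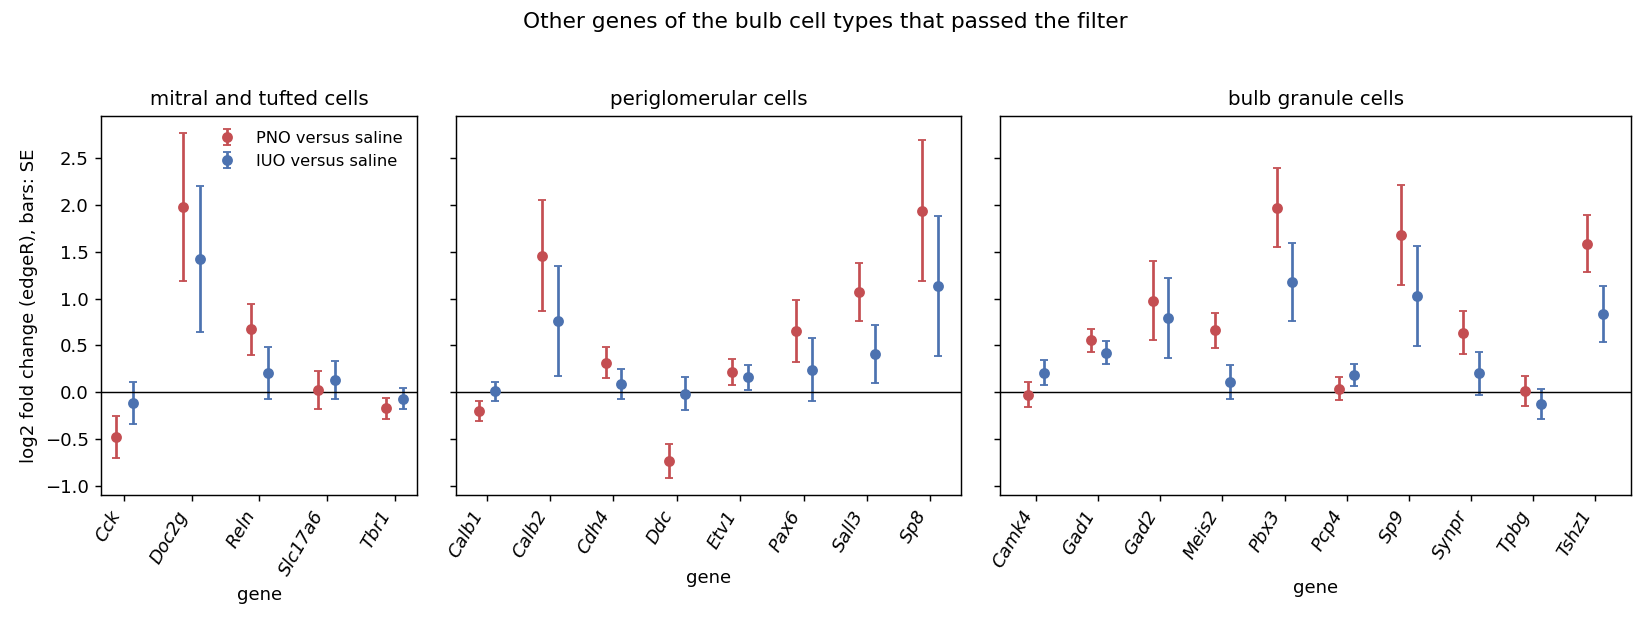
Log2 fold change (edgeR) of the tested genes of the 3 lists, with an SE derived from the edgeR test. PNO versus saline is in red and IUO versus saline in blue, and both share the saline libraries. Pbx3, Tshz1, Sp9, Sp8, Doc2g and Calb2 have the highest values in PNO, and Ddc has the lowest.

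Leaving out PNO 1, PNO 3, PNO 4 and IUO 3, the libraries in which the 10 genes were high, the PNO versus saline median of the mitral and tufted list was -0.33, that of the periglomerular list -0.12 and that of the granule list 0.39. PNO was then PNO 2 alone, taken to vary like the other groups. Leaving out PNO 2, IUO 1, IUO 2 and saline 2 instead, in which striatal genes were high, these medians were 0.11, 0.57 and 0.66. Without IUO 3 the IUO versus saline medians were -0.01 for the mitral and tufted list, -0.08 for the periglomerular list and 0.24 for the granule list.

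The summed level of migrating neuroblast genes was highest in the same 4 libraries, though not every gene of the list followed it. Of the 9 tested of 10 listed, 8 had an unadjusted p under 0.05 in PNO versus saline, all higher, with a median log2 fold change of 0.99. In IUO versus saline 1 of the 9 did (Dlx6), and the median of 0.41 became -0.13 without IUO 3. Leaving out PNO 1, PNO 3, PNO 4 and IUO 3, the PNO versus saline median was 0.46, with PNO then PNO 2 alone. Dlx6 was highest in PNO 2, at 9.58 CPM, against 5.87 to 6.27 CPM in the other PNO libraries, and Sox11 was also highest in PNO 2, at 4.18 CPM. Cd24, which encodes a cell surface protein, was 50.8, 60.6, 65.8 and 66.0 CPM in PNO, 67.8, 44.8, 67.2 and 60.1 CPM in IUO and 60.9 to 77.1 CPM in saline, so it was not high in these libraries. The summed level of the list was 236, 171, 257 and 268 CPM in PNO, 156, 138, 300 and 137 CPM in IUO, and 158 to 174 CPM in saline. Dlx1, a homeobox gene of forebrain inhibitory neurons, averaged 46.1 ± 13.2 CPM in PNO and 25.3 ± 1.98 CPM in saline (SD, n = 4 each), with an edgeR adjusted p of 0.421.

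Other dopamine genes had patterns unlike that of Th. Slc6a3, the dopamine transporter that defines midbrain dopamine neurons, was at 0 in 8 libraries and at most 0.268 CPM in the others. Slc18a2, the vesicular monoamine transporter, lay between 10.4 and 12.3 CPM in PNO, 10.7 and 13.0 CPM in IUO and 11.1 and 14.7 CPM in saline. Ddc, which encodes the enzyme that makes dopamine from the product of tyrosine hydroxylase, measured 3.26 ± 0.687 CPM in PNO, 5.37 ± 0.741 CPM in IUO and 5.42 ± 0.521 CPM in saline (SD, n = 4 each). Its log2 fold change in PNO versus saline was -0.73 (SE 0.178, edgeR adjusted p = 0.305), and all 4 PNO libraries were below all 4 saline libraries. In PNO 1, PNO 3 and PNO 4, where Th was high, Ddc was 2.98, 2.44 and 3.65 CPM, and in IUO 3, where Th was highest, it was 6.43 CPM. Of the 8 tested genes of dopamine synthesis and handling 3 (Ddc, Spr and Maob) had an unadjusted p under 0.05 in PNO versus saline, all lower, with a median log2 fold change of -0.20.

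The genes of TRH processing also differed from Trh. Of 5 tested genes of TRH processing and signalling 0 had an unadjusted p under 0.05 and a higher level in PNO or IUO than in saline, and 2 in PNO (Pcsk1 and Cpe) and 1 in IUO (Pcsk1) were lower. Pcsk1, a prohormone convertase, measured 18.1 ± 1.44 CPM in PNO, 17.5 ± 1.56 CPM in IUO and 23.3 ± 1.15 CPM in saline (SD, n = 4 each), with edgeR adjusted p of 0.305 and 0.998. The summed level of 7 hypothalamic genes was 1.89 CPM in IUO 3, where Trh was highest, and 13.9 CPM in PNO 2, mainly Pomc at 11.4 CPM, where Trh lay within the saline range. It was 8.77 CPM in PNO 3, where Trh was also high, mainly Pomc at 7.06 CPM. The sum was 2.24 and 2.79 CPM in PNO 1 and PNO 4, where Trh was high as well, and 2.26 to 5.96 CPM in saline. Of the 7 genes 2, Avp and Pomc, passed the filter. Whether hypothalamic tissue took part in the Trh level was not tested.

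In the gene families of the other members, few genes had an unadjusted p under 0.05. Of 11 tested Shisa family and AMPA receptor auxiliary genes 2, Shisa7 and Shisa9, had an unadjusted p under 0.05 and were higher in PNO, with a median log2 fold change of 0.03, and 0 in IUO. Of 6 tested G protein gamma subunit genes 0 had an unadjusted p under 0.05 in either comparison, with medians of -0.11 in PNO and -0.02 in IUO. Of 6 tested T-box genes 0 in PNO and 1 in IUO, Tbx2 at 2.42 ± 0.546 CPM in IUO and 3.33 ± 0.794 CPM in saline (SD, n = 4 each), had an unadjusted p under 0.05. The 2 tested genes of the MS4A family list were Tmem176a and Tmem176b, and none of its genes with an Ms4a name passed the filter. Tmem176b was lower at an unadjusted p under 0.05 in both comparisons. It measured 56.0 ± 2.28 CPM in PNO, 56.5 ± 13.2 CPM in IUO and 73.0 ± 6.04 CPM in saline (SD, n = 4 each). Of 8 tested EF-hand calcium-binding genes 1 was higher (Calb2) and 1 lower (Vsnl1) in PNO at that p, and 1 (Ocm) was higher in IUO.

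Eomes and Tbx21 also mark other cells. Eomes is a gene of cortical intermediate progenitors, and the summed level of Neurog1, Neurog2, Mki67 and Top2a, genes of such progenitors and of dividing cells, was 8.39 CPM in PNO 2, the highest of the exposed libraries. It was 2.24 to 4.60 CPM over PNO 1, PNO 3 and PNO 4, and 3.92 CPM in IUO 3, against 2.57 to 6.79 CPM in saline. PNO 2 held the most of these transcripts of all 12 libraries, mainly Mki67 (3.92 CPM) and Top2a (3.96 CPM), and its Eomes level lay within the saline range. The part of such progenitors in the Eomes level was not tested. Tbx21 is a factor of cytotoxic lymphocytes, and 7 genes of those cells together reached 2.06 CPM in IUO 3 and 1.74 CPM in PNO 4, against 0.525 to 1.14 CPM in saline. In PNO 1 and PNO 3, where Tbx21 measured 8.31 and 6.89 CPM, they reached 0.639 and 0.887 CPM, within the saline range. Cd8a, which did not pass the filter, was 0.168, 0.0692, 0.385 and 1.10 CPM in PNO and 0, 0, 1.37 and 0.147 CPM in IUO. It was 0.0704 to 0.136 CPM in saline, so PNO 1, PNO 3, PNO 4, IUO 3 and IUO 4 were above all saline libraries. Cd3e, which defines T cells, was at most 0.568 CPM, in IUO 2, where Tbx21 was lowest. The part of lymphocytes in the Tbx21 level was not tested. Of the 3 olfactory ensheathing cell genes, Frzb and Fabp7 were tested and 0 had an unadjusted p under 0.05 in either comparison. The summed level of the 3 genes was highest in IUO 3, at 127 CPM, and lay between 57.5 and 99.9 CPM in the other 11 libraries, with Fabp7 as its largest part. Prss56, which did not pass the filter, lay between 0.824 and 1.52 CPM in PNO, was 0.352, 0.386, 3.21 and 0.275 CPM in IUO and 0.131 to 0.563 CPM in saline, so all 4 PNO libraries and IUO 3 were above all saline libraries.

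The 10 genes outside the members whose log2 CPM was most like the mean of the member z-scores over the 12 libraries, by Pearson's r, were Pcbp3, Dlx1, Spp1, Dcx, Csdc2, Doc2g, Calb2, Gpsm1, Myo16 and Mcub, of which Dlx1, Dcx, Doc2g and Calb2 are on the lists above. Their r lay between 0.983 (Pcbp3 and Dlx1) and 0.955 (Mcub), and between 0.912 and 0.973 without IUO 3 and PNO 4. In the 8 libraries in which the members were not high it lay between -0.10 for Dcx and 0.68 for Dlx1, so the likeness rests mainly on the other 4. Spp1, which encodes the secreted protein osteopontin, measured 17.4, 3.63, 25.2 and 23.3 CPM in PNO, 3.29, 1.64, 39.5 and 2.88 CPM in IUO, and 3.05 to 4.99 CPM in saline. Dcx, which encodes doublecortin, a microtubule-binding protein of migrating neurons, measured 64.4, 24.8, 54.6 and 63.7 CPM in PNO, 22.5, 25.1, 74.8 and 21.7 CPM in IUO, and 21.6 to 27.1 CPM in saline. Among all tested genes that are not members 39, the 10 named included, had an r of at least 0.9 and 0 had one of -0.9 or less.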

How the data were processed

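Poly(A) RNA of 12 rat prefrontal cortex samples was sequenced from stranded libraries, per the labels' protocols. The authors aligned with HISAT2 and quantified with StringTie, per the submitters' processing notes; for versions, settings, genome build and annotation the sources used here give nothing. Whole-number counts and FPKM per gene were deposited in 1 table, per the file headers, and its gene positions are not used with the GRCr8 promoter coordinates.

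Counts were scaled with TMM factors and fitted in 1 model of 3 groups over all 12 libraries with edgeR's quasi-likelihood test. The test was two-sided, with Benjamini-Hochberg adjustment over the 14170 genes whose mean FPKM was at least 0.5. It was tried on simulated counts with the same relative spread in all genes, 200 genes changed and no library apart from its group. That trial does not show how the test performs on libraries like these. The SE of a log2 fold change was taken as its absolute value divided by the square root of the test's F statistic. Log2 CPM used a prior count of 2. Low counts of a gene make its fold uncertain, and a filter on the mean keeps genes that are high in 1 group. Tools were Python 3.11.15 with matplotlib 3.10.9, and DESeq2 1.42.0, edgeR 4.0.16 and limma 3.58.1 under R 4.3.3.

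The members and the gene lists were chosen with earlier results of these data known. Members were described without a test. Named genes were all members, any gene of the 3 lists of bulb cell types, up to 4 genes with the highest mean FPKM of each other list, and the 10 genes most like the members. Other genes behind counts of 5 or fewer, and Sox11, were named after their values were seen. Alternatives were DESeq2, limma on log2(FPKM + 0.5), RLE size factors, other filters, pseudocounts and prior counts, only the groups compared, a replicate block and leaving out each library. Leaving out 4 libraries at a time was chosen after seeing the data.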

Additional observations from a re-analysis of the deposited data

Results flagged for a closer look

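The 10 genes were chosen by their levels in these libraries, so only the summed levels of the 19 gene lists were searched for a library that stands apart from its group. In 8 of the 57 combinations of list and group, 1 library's gap to its neighbour exceeded Dixon's 95% critical share of the range of the 4. Chance gives about 1 such group in 20, the lists share genes, and they were chosen with earlier results known, so these are not separate observations. In PNO the library apart was PNO 2, with a log2 summed CPM of 9.29 for the mitral and tufted list and 7.70 for the periglomerular list, both below the other PNO libraries, and of 10.43 for the striatal list, above them. In IUO it was IUO 3, above the others at 8.39 for the periglomerular and 8.23 for the neuroblast list, and IUO 4 at 1.5 for the hypothalamic list. In saline it was saline 3, at 7.44 for the neuroblast list, and saline 1, at 2.58 for the hypothalamic list, each above the others. The largest part of the mitral and tufted sum was Cck, which the cortex also expresses. Cck was 441 CPM in PNO 2 and 612 to 656 CPM in the other PNO libraries. The sum of that list was 902 to 1047 CPM in saline and highest in IUO 4, at 1344 CPM, so it did not follow the 10 genes.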

How the results depend on the processing

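Calls after adjustment moved most with the tool, over the alternatives run. After adjustment DESeq2 gave 119 genes in PNO versus saline, 11 in IUO versus saline and 8 in IUO versus PNO, where edgeR gave 0. In PNO versus saline limma on log2(FPKM + 0.5) gave 1 and a fit of only the groups compared 11. Leaving out each library gave 0 to 19 in PNO versus saline (19 without IUO 4, 1 without saline 2), 0 to 1 in IUO versus saline and 0 to 1 in IUO versus PNO. Unadjusted counts then lay between 1075 and 2267, 479 and 1276, and 603 and 1434 in these comparisons, with 1276 and 603 without IUO 4 and 1434 without IUO 1. With no filter the unadjusted count in IUO versus saline was 876. Leaving out PNO 1, PNO 3, PNO 4 and IUO 3 gave 3, 1 and 3 genes after adjustment, and 986 and 625 before it in PNO versus saline and IUO versus PNO. Leaving out PNO 2, IUO 1, IUO 2 and saline 2 gave 4 after adjustment in IUO versus saline and 3 in IUO versus PNO, and 945, 1015 and 1927 before it. The causes were not tested.

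Replicate numbers were not taken to pair the samples. Same-number correlations of the deviations from group means were 0.015 to 0.411 and not all above 0.1. The best correlated library had the same number for some libraries and another number for others. These correlations cannot show whether the numbers pair the samples, since the libraries also differ in regional markers. With the replicate block edgeR gave 0 genes after adjustment in each comparison and 1780, 705 and 1144 before it.

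The difference PNO minus saline kept its sign for all 10 genes under all 14 alternatives each. The genes were chosen by their levels in these libraries, so nothing is read from the kept sign. On log2(FPKM + 1) the difference was 1.30 for Eomes and 2.00 for Ms4a15, since a pseudocount shrinks low genes. For IUO minus saline the sign turned without IUO 3 in 8 genes, and with group medians in Trh and Scgn. The striatal list median in PNO versus saline was -0.50 without PNO 2, against 1.32 with it. By Spearman's rho 0 of the 10 most similar genes were shared with those named. The saline levels of Eomes and Ms4a15 are limited by counts of 9 to 27 and 0 to 24 reads.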
